A study of Mus musculus with 99 samples.

Results

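Classical and nonclassical MHC class I genes and the immunoproteasome were followed through a survey of heart transcripts in inbred mice. All probe sets of 9 listed genes were sought, and 6 of the 9 genes had a named probe set: H2-K1, H2-D1, H2-T23, H2-T10, Psmb8 and Psmb9. They were measured by 20 of the 22416 probe sets, of which 15 were annotated to 1 of these genes and 5 to H2-K1, H2-D1 and LOC547349 together. B2m, Tap1 and Tap2 had no named probe set in the annotation used and were not analysed here. Of the 20 probe sets, 16 passed a filter on dim probe sets, a mean above 3.59 log2 units, and 4 did not (H2-D1 1451934_at, H2-K1 1450534_x_at, H2-T23 1419658_at and Psmb9 1448177_at, with means of 3.22, 3.32, 3.11 and 3.36).

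Male mice, 16 weeks old per the protocol and fed chow, gave heart RNA with no treatment, and each strain was measured on 1 Affymetrix HT_MG-430A array, 99 in all. There were 11 BXH strains (C57BL/6J and C3H/HeJ parents), 30 BXD strains (C57BL/6J and DBA/2J), 15 AXB and 13 BXA strains (reciprocal crosses of A/J and C57BL/6J) and 28 classical inbred strains, which hold the 4 parents. Single arrays of CAST/EiJ and B6cC3-1/KccJ completed the set. The BXD set includes strains named for a mutant allele, BXD29-Tlr4<lps-2J>/J and BXD24/TyJ-Cep290<rd16>/J. Among the classical strains, BTBR T<+> tf/J also has allele symbols in its name. Recombinant inbred strains are homozygous mosaics of their parents, and closely related ones were averaged, which left 29 BXD and 26 AXB and BXA families. Errors and p-values measure the spread between strains, technical spread included, because each strain was arrayed once. In whole heart, fewer cells of a type and less RNA per cell cannot be told apart.

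MHC class I molecules display peptides from inside the cell to CD8 T cells. H2-K1 and H2-D1 are classical heavy chains, which differ in sequence between strains, and H2-T23 encodes Qa-1, a nonclassical chain read by receptors of natural killer cells. H2-T10 is a nonclassical gene of the same region, entered as a transcribed pseudogene in RefSeq. Psmb8 and Psmb9 are catalytic subunits that interferon induces and that replace Psmb5 and Psmb6 in the proteasome, which cuts the peptides. All 6 genes lie on chromosome 17. As background on the strains, C57BL/6J carries the H2 haplotype b, DBA/2J and BALB/cJ carry d, C3H/HeJ, AKR/J and CBA/J carry k, and A/J is a recombinant with k at the K end and d at the D end.

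The promoters of the classical genes, H2-K1 and H2-D1, are shown because both held a kappa B motif. Its part in the heart values was not tested. RefSeq promoter windows (GRCm38.p6, 250 bases before the start site) were matched for 5 of the 6 genes and searched on both strands for 4 motifs. The kappa B motif was in 10 of 32851 windows (0.0304%), those of H2-K1 and H2-D1 among them. In 30 bases around it, 29 were identical between H2-K1 (chr17:34000438-34000467, minus strand) and H2-D1 (chr17:35262914-35262943, plus strand); capitals mark the motif.
H2-K1: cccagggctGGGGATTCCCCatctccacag
H2-D1: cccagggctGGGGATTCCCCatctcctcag

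The windows of H2-T23 (chr17:36032702-36032951, minus strand) and Psmb8 (chr17:34197945-34198194, plus strand) are shown because each held a motif read by interferon-activated factors. Capitals mark an interferon-stimulated response element (in 2.98% of windows), read on the opposite strand in H2-T23, and a gamma-activated site, TTCNNNGAA (in 7.02%), in Psmb8. The Psmb9 window held neither, nor the kappa B letters, and the fourth motif, the inverted CCAAT box ATTGG, was in 33.8% of windows. A match is a description of these letters in the reference strain.
H2-T23: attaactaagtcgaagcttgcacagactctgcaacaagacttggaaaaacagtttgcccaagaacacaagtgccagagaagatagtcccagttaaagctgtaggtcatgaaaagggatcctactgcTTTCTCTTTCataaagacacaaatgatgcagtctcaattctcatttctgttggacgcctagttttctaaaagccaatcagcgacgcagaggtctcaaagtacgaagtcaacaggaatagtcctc
Psmb8: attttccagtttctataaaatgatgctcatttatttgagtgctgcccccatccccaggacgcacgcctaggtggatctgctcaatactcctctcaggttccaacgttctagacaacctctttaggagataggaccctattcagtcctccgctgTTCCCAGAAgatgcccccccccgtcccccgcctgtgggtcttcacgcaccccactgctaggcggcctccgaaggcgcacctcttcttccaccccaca

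The hearts were dominated by cardiomyocyte transcripts, with a list mean of 12.6 to 12.9 log2 units on every array. The leukocyte list mean (9 genes) was 3.94 on the median array and 6.92 on the highest, AXB19/PgnJ, and its markers Ptprc and Cd3e had medians of 4.65 and 3.33. In 41 of 99 arrays, markers of airway, liver, squamous epithelium or fast skeletal muscle lay over 2 log2 units above the median array, and 8 of these were among the 11 BXH arrays. Array titles, numbers of unstated meaning, interleave between BXD (473 to 670) and AXB and BXA (481 to 683), but BXH titles (3 to 394) overlap neither, so title range and panel cannot be told apart for BXH.

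H2-D1 probe sets split the strains into separate levels. On 1452544_x_at, DBA/2J stood at 9.31 and A/J at 8.71 log2 units, against 3.08 in C57BL/6J, and C3H/HeJ was at 3.42. In BXD, 19 of 29 families lay on the DBA/2J side of the parental midpoint (8.41 to 9.41, median 8.94) and 10 on the C57BL/6J side (3.06 to 4.44, median 3.54). The empty interval between these levels was 3.97 log2 units. In AXB and BXA, 14 of 26 families lay on the A/J side (8.50 to 9.83, median 8.98) and 12 on the C57BL/6J side (3.16 to 4.01, median 3.53). All 11 BXH strains were low, between 3.06 and 3.62. The H2-D1 probe set 1427651_x_at and the shared probe set 1425614_x_at put all 29 BXD and all 26 AXB and BXA families on the same side.

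Among the classical strains, 7 were high on 1452544_x_at (8.29 to 9.66): PL/J, BALB/cJ, NZB/BlNJ, A/J, SEA/GnJ, DBA/2J and LG/J. The other 21 lay between 3.01 and 3.91. The same 7 strains were high on 1427651_x_at and 1425614_x_at. These counts are descriptions, since each parent had 1 array.

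The H2-D1 probe set 1450170_x_at marked a different set of strains. C3H/HeJ stood at 7.77, against 3.19 in C57BL/6J, 3.35 in DBA/2J and 3.39 in A/J. BXH6/TyJ, BXH2/TyJ, BXH7/TyJ and BXH14/TyJ were high (7.47, 7.53, 7.62 and 7.90), and the other 7 BXH strains lay between 3.03 and 3.61. No BXD family exceeded 3.92 and no AXB or BXA family exceeded 3.60. The shared probe set 1425545_x_at ran the other way, at 7.97 in C3H/HeJ against 10.24 in C57BL/6J, and put all 11 BXH strains on the side of the same parent. Among the classical strains, 6 were high on 1450170_x_at (7.49 to 7.77): AKR/J, MA/MyJ, CBA/J, CE/J, C58/J and C3H/HeJ. All 6 were among the 7 that were low on 1425545_x_at, the other being RIIIS/J. None of them was among the 7 strains high on 1452544_x_at, and 15 of the 28 strains were high on neither. CAST/EiJ was intermediate on 1450170_x_at, at 5.87.

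The brightest H2-D1 probe set, 1451784_x_at, showed no such split: BXH ranged from 9.11 to 10.05, BXD from 8.91 to 10.11, and AXB and BXA from 8.82 to 10.23. A probe set reads the RNA level and the match of its probes to the strain's own sequence together, and these cannot be told apart from the deposited values.

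**Figure D1:**
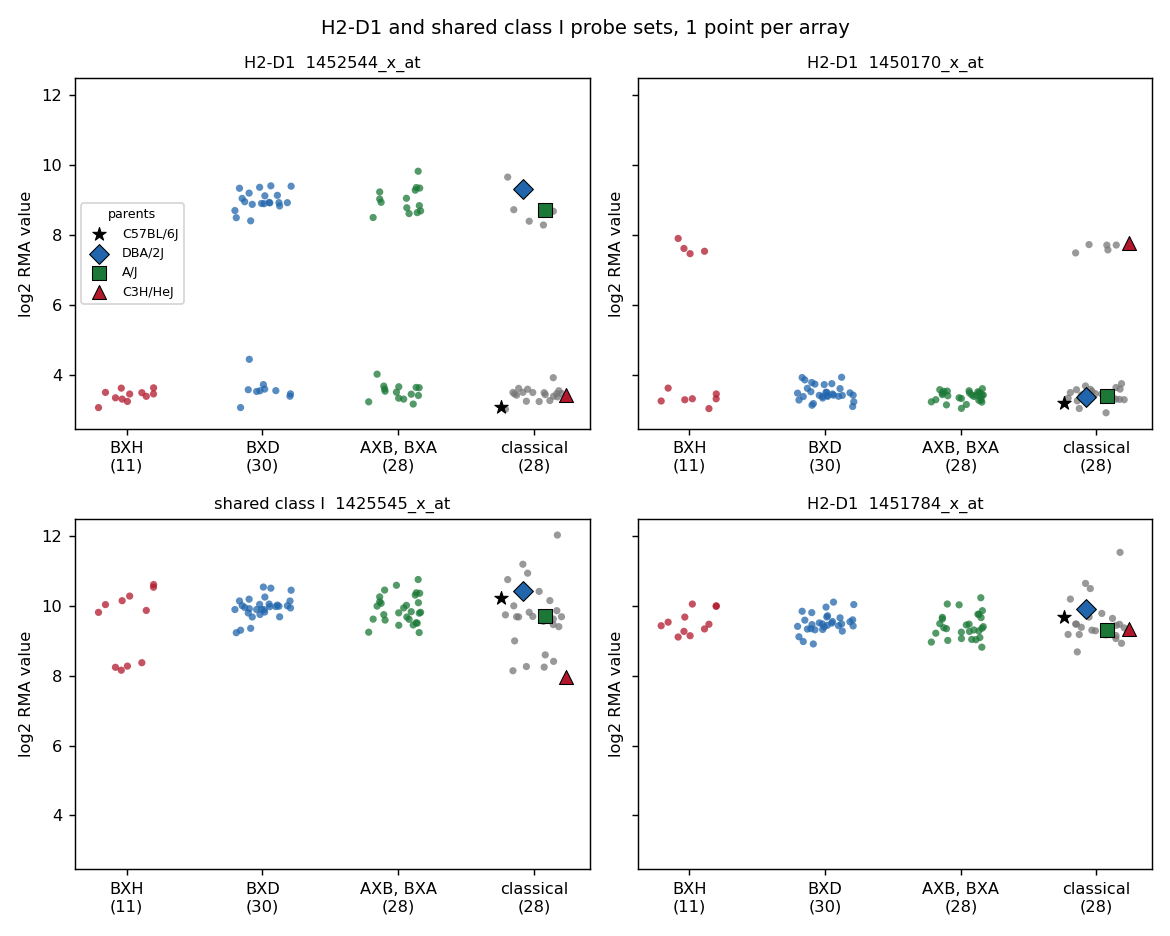
Log2 RMA value (vertical axis) of 4 H2-D1 or shared class I probe sets, 1 point per array, in BXH, BXD, AXB with BXA and classical strains (numbers of arrays in brackets); large symbols are the 4 parents. 1452544_x_at separates families at 8.41 and above from families at 4.44 and below in BXD, 1450170_x_at separates 4 BXH strains from 7, and 1451784_x_at does not split.

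The H2-T23 and H2-T10 probe sets read lower in the heart of A/J than in those of the other parents. Each gene rests on the probe set named here, and RNA level and probe match again cannot be told apart. H2-T23 (1449556_at) stood at 6.35 in A/J, 8.65 in DBA/2J and 8.52 in C3H/HeJ, against 8.80 in C57BL/6J. In AXB and BXA, 13 families lay on the A/J side (6.24 to 7.32) and 13 on the C57BL/6J side (7.78 to 9.14). H2-T10 (1449875_s_at) stood at 4.58 in A/J, 6.39 in DBA/2J and 6.12 in C3H/HeJ, against 6.27 in C57BL/6J, again with 13 families on each side (4.26 to 5.23, and 5.55 to 6.92). The intervals without a family were narrower than for H2-D1, 0.46 log2 units for H2-T23 and 0.32 for H2-T10.

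H2-D1, H2-T23 and H2-T10 mostly fell on the side of the same parent. H2-T23 and H2-T10 put 24 of 26 families on the side of the same parent, all but AXB23/PgnJ and BXA4/PgnJ. H2-T23 and H2-D1 1452544_x_at did so for 25 of 26, all but AXB24/PgnJ. H2-K1 (1427746_x_at), at 7.19 in A/J and 7.36 in C3H/HeJ against 8.32 in C57BL/6J, varied without an interval, and its side matched that of H2-D1 in 16 of 26 families and that of H2-T23 in 17. Neighbouring genes of a recombinant strain usually come from the same parent, so these counts are not independent observations.

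In the classical strains, H2-T23 was low in 9 (6.35 to 7.21) and between 8.18 and 10.24 in 19. The low strains were A/J, NZB/BlNJ, NOD/ShiLtJ, FVB/NJ, KK/HlJ, C58/J, NON/ShiLtJ, PL/J and BUB/BnJ. H2-T10 was below its midpoint in 9 as well, and 8 strains were low for both. Of the 9 strains low for H2-T23, 3 were among the 7 high on H2-D1 1452544_x_at.

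Panel means were compared with limma over 13398 probe sets, called at an adjusted p under 0.05. Between BXD and the AXB and BXA panels, 2 of 16 class I and immunoproteasome probe sets were called, both higher in BXD, beside 14.3% of all probe sets (7.52% higher and 6.78% lower). H2-T23 averaged 8.71 ± 0.32 in BXD and 7.66 ± 1.00 in AXB and BXA (SD, n = 29 and 26), a difference of 1.06 (SE 0.19, limma adjusted p = 7.0e-05). The lowest BXD family, at 8.08, lay within the AXB and BXA range, which reached 9.14. H2-T10 averaged 6.25 ± 0.36 in BXD and 5.48 ± 0.81 in AXB and BXA, a difference of 0.77 (SE 0.16, limma adjusted p = 0.00070). The part of the match of the probes to the A/J sequence in both differences was not tested. With title numbers up to the median, the differences were 0.77 for H2-T23 (limma adjusted p = 0.072) and 0.51 for H2-T10 (0.165), and above the median 1.22 (0.0080) and 0.91 (0.019). The endothelial list averaged 7.59 ± 0.18 in BXD and 7.35 ± 0.18 in AXB and BXA arrays (SD), and the interferon list 4.95 ± 0.31 and 4.72 ± 0.24; their part in the result was not tested. The leukocyte list had a median of 3.88 in BXD arrays and 3.91 in AXB and BXA arrays, and the Gapdh 3′ minus 5′ control difference averaged -0.22 in BXD and -0.31 in AXB and BXA. Both calls stood with the Gapdh difference as a covariate and without arrays whose leukocyte list mean was over 1 log2 unit above the median array.

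Between BXH and the AXB and BXA panels, 5 of 16 were called, 2 higher and 3 lower in BXH, beside 5.61% of all probe sets (2.64% higher and 2.96% lower). The H2-D1 probe sets 1452544_x_at, 1427651_x_at and 1450170_x_at had a mean below the filter level in 1 or more of the panels compared (3.40 and 3.56 in BXH, and 3.39 in AXB and BXA) and passed through the strains where they are high. The counts are therefore a description. Adjusted p-values from the fit without a filter are given for 1452544_x_at and 1450170_x_at, and only the difference for 1427651_x_at. H2-D1 1452544_x_at averaged 3.40 ± 0.17 in BXH and 6.47 ± 2.82 in AXB and BXA (SD, n = 11 and 26), a difference of -3.07 (SE 0.82, limma adjusted p = 0.029 without the filter). The H2-D1 probe set 1427651_x_at differed by -2.74 and the shared 1425614_x_at by -2.61. H2-D1 1450170_x_at averaged 4.89 ± 2.18 in BXH and 3.39 ± 0.14 in AXB and BXA. It was higher in BXH by 1.5 (SE 0.40, limma adjusted p = 0.030 without the filter). The fit takes a common spread for both panels, but the smaller panel had the larger spread. This SE is therefore too small, and the p-value is not relied on. H2-T23 was higher by 1.07 (SE 0.30, limma adjusted p = 0.024, and 0.058 when near-isogenic strains were not averaged). H2-T10 differed by 0.77 without passing (limma adjusted p = 0.064). The part of probe match in the differences of H2-T23 and H2-T10 was not tested. A mean over a panel that splits stands for no family, as the ranges above show. The macrophage list averaged 6.66 ± 0.23 in BXH, against 6.11 ± 0.30 in AXB and BXA and 6.02 ± 0.31 in BXD arrays (SD), and the leukocyte list median was 4.16 in BXH, against 3.91 and 3.88. Their part in the BXH results was not tested.

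Between BXH and BXD, 5 of 16 were called, 1 higher and 4 lower in BXH, beside 9.9% of all probe sets (4.52% higher and 5.38% lower). This count too is a description, since 1452544_x_at, 1427651_x_at and 1450170_x_at passed the filter through the strains where they are high. Without the filter, 4 of 20 were called, beside 5.07% of all probe sets. H2-D1 1452544_x_at averaged 3.40 ± 0.17 in BXH and 7.13 ± 2.64 in BXD (SD, n = 11 and 29), a difference of -3.73 (SE 0.77, limma adjusted p = 0.0024 without the filter). Its companions 1427651_x_at and 1425614_x_at differed by -3.32 and -3.19, and 1426324_at by -0.42. H2-D1 1450170_x_at averaged 4.89 ± 2.18 in BXH and 3.48 ± 0.22 in BXD. It was higher in BXH by 1.40 (SE 0.39, limma adjusted p = 0.024 without the filter). Here too the smaller panel had the larger spread, so the SE is too small and the p-value is not relied on. With the Gapdh difference as a covariate, 1450170_x_at (limma adjusted p = 0.086) and 1426324_at (0.147) were no longer called, and without the filter 1426324_at was not called either (0.054). H2-T23 differed by 0.01 (95% interval -0.21 to 0.24). Without the arrays that carried markers of another organ only 3 BXH arrays were left, none of these BXH calls remained in either comparison, and 1452544_x_at then differed by -4.03 from AXB and BXA and by -3.97 from BXD.

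The reciprocal panels AXB and BXA gave 0 of 16 calls, beside 0% of all probe sets by limma, with 0 of the 16 at an unadjusted p under 0.05 and 1370 of all probe sets. BXH and the classical strains gave 0 of 16, beside 0.179% of all, with H2-T23 and H2-T10 at an unadjusted p under 0.05 by limma. H2-K1, Psmb8 and Psmb9 were called in none of the 5 comparisons. The comparisons share arrays and are not independent.

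**Figure D2:**
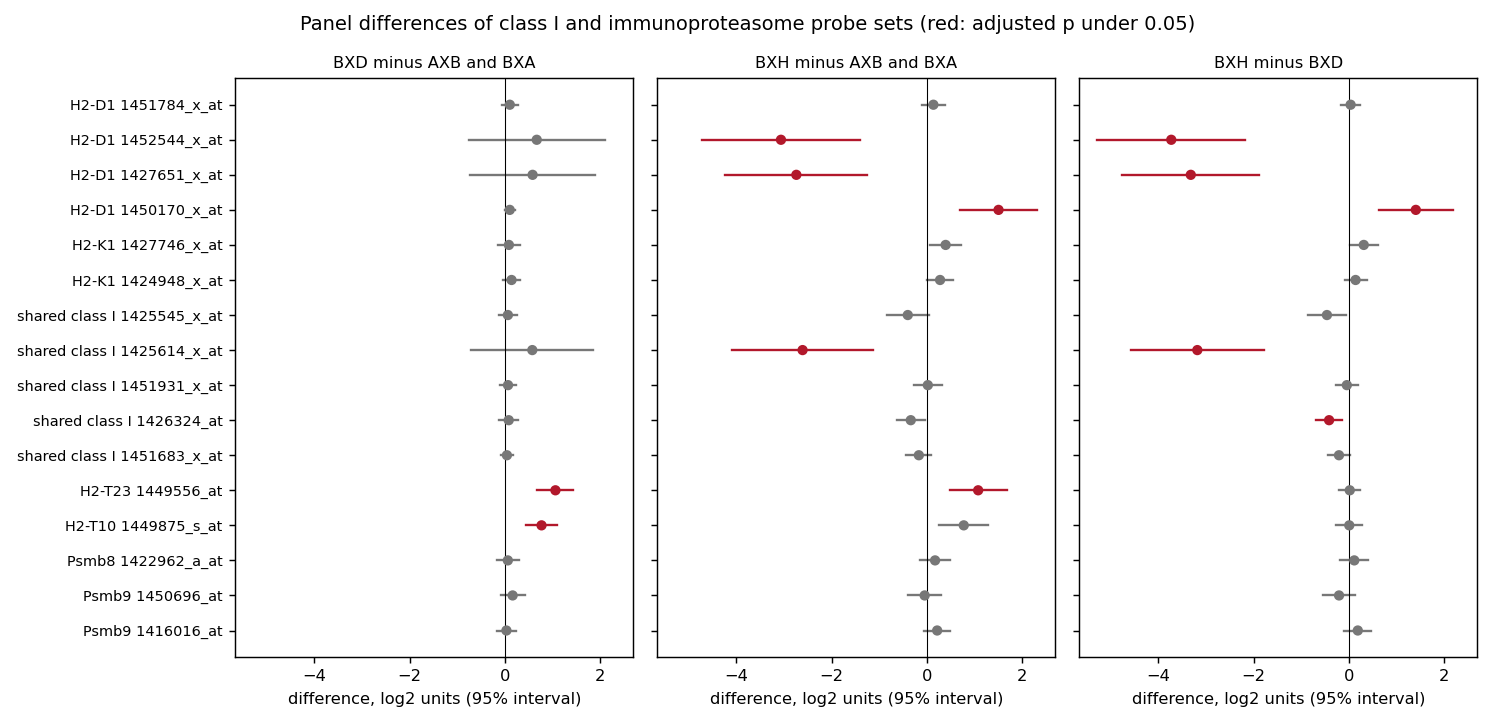
Difference in log2 units (horizontal axis, points) with its 95% interval (lines) for 16 probe sets in 3 panel comparisons; red marks an adjusted p under 0.05. H2-T23 and H2-T10 stand apart in BXD minus AXB and BXA, and the splitting H2-D1 probe sets in both BXH comparisons. All values come from the fit with the filter on dim probe sets. The splitting H2-D1 probe sets passed it through the strains where they are high, so their red marks are a description. For the splitting H2-D1 probe set that is higher in BXH, the interval is too narrow and the mark is not relied on.

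Of 41 other listed genes of the class I pathway, 30 were on the array and 21 were tested, with 30 probe sets. Between BXD and the AXB and BXA panels 3 of 30 were called, beside 14.3% of all probe sets, between BXH and AXB and BXA 1, beside 5.61%, and between BXH and BXD 2, beside 9.9%. In BXD, 1 of the probe sets of Jak2, a kinase of interferon receptors, was higher than in AXB and BXA by 0.30, while another differed by 0.06 (limma adjusted p = 0.59). H2-T24 was higher in BXD by 0.44, and Psmb6, the constitutive subunit that Psmb9 replaces, was lower by 0.27 (difference -0.27). In BXH, Fcgrt, the neonatal Fc receptor, was higher by 0.18 than in AXB and BXA and by 0.17 than in BXD, and the Jak2 probe sets differed from BXD by -0.35 and by -0.11 (limma adjusted p = 0.0010 and 0.47). The median absolute difference of the list was 0.06 between BXD and the AXB and BXA panels, beside 0.07 over all probe sets, and 0.10 between BXH and the classical strains, beside 0.07.

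The 16 probe sets varied widely among the 28 classical strains. Their median SD was 0.85 log2 units, beside 0.23 over all probe sets, and each lay between the 95.2th and 99.9th percentile. Without arrays that carried markers of another organ, 17 strains were left and the median SD was 0.95. H2-D1 1452544_x_at and 1450170_x_at had classical medians of 3.48 and 3.47, below the filter level. They passed through the strains where they are high, so a large SD was built in for them. The 4 probe sets that did not pass the filter had SDs between 0.13 and 0.26. SWR/J and I/LnJ were the highest strains for Psmb8 (8.07 and 8.09, median 5.73), Psmb9 1450696_at (7.79 and 7.39, median 5.13) and H2-K1 (9.73 and 9.75, median 7.54). Their interferon list means were 5.55 and 6.05, against 4.77 on the median array, and their leukocyte list means were 4.61 and 4.86, against 3.94. Their part in the result was not tested. RIIIS/J was lowest for Psmb8 (5.12), NZW/LacJ for Psmb9 (4.31) and BALB/cJ for H2-K1 (6.22). CAST/EiJ lay below all 28 classical strains for Psmb8 (4.98) and H2-T10 (4.07). Its single array had the highest liver list mean of all, 11.63, and the lowest interferon list mean, 3.72. Their part, and that of the match of the probes to this strain's sequence, was not tested.

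**Figure D3:**
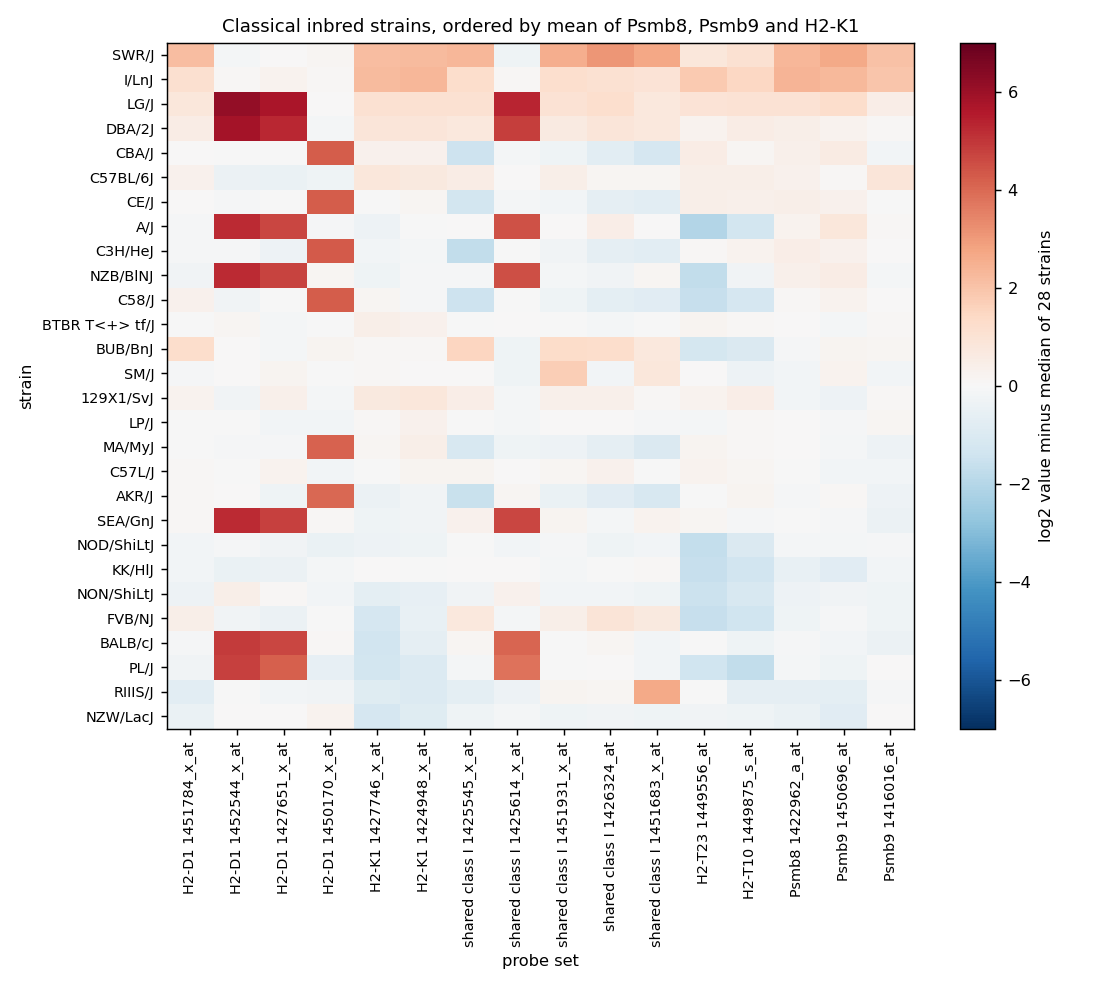
Heat map of 28 classical strains (rows) by 16 probe sets (columns), coloured by the log2 value minus the median of the strains. SWR/J and I/LnJ are high across Psmb8, Psmb9 and H2-K1, and 7 and 6 different strains are high on H2-D1 1452544_x_at and 1450170_x_at.

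Psmb8 and Psmb9 followed each other across strains. Of 72 relations listed, 70 were computed by permutation, two-sided, and 46 had a Benjamini-Hochberg adjusted p under 0.05 for Pearson's r. The relations with H2-K1, the interferon list, Irf1 or title number were added after the data were seen. The count includes them and is a description. The r of Psmb8 with Psmb9, a planned relation, was 0.81 in BXD (rho 0.74, n = 29), 0.87 in AXB and BXA (rho 0.86, n = 26), 0.90 in BXH (rho 0.89, n = 11) and 0.96 in the classical strains (rho 0.83, n = 28). The raw permutation p was 1e-05 in the classical strains, the smallest that 100000 permutations can give, and the adjusted p was 0.00027 in BXH. Without the 2 strains farthest from the median, r was 0.75, 0.85, 0.80 and 0.87 in that order of groups; in the classical strains these were I/LnJ and SWR/J. Psmb8 with the constitutive Psmb5, and Psmb9 with Psmb6, gave r between -0.24 and 0.33 in the 4 groups, with no adjusted permutation p under 0.05.

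The mean of 14 interferon-induced genes, the interferon list, followed Psmb8 and Psmb9 by Pearson's r. Relations with this list and with H2-K1 were added after the data were seen. With Psmb9, r was 0.76 in BXD, 0.76 in AXB and BXA, 0.81 in BXH and 0.80 in the classical strains. In BXH the rho with Psmb9 was 0.57 (adjusted permutation p = 0.11), and r was 0.61 without BXH6/TyJ and BXH8/TyJ (adjusted permutation p = 0.12). With Psmb8, r was 0.79 in BXD (rho 0.74), 0.75 in AXB and BXA (rho 0.66), 0.86 in BXH (rho 0.70) and 0.87 in the classical strains (rho 0.83). In BXH it was 0.64 without BXH6/TyJ and BXH8/TyJ and no longer passed, with fewer strains left (adjusted permutation p = 0.10). H2-K1 with H2-D1 gave r of 0.75 in BXD (rho 0.78), 0.83 in AXB and BXA (rho 0.78), 0.82 in BXH (rho 0.78) and 0.75 in the classical strains (rho 0.67). Without the 2 strains farthest from the median on H2-K1, r was 0.65 in BXD and 0.71 in AXB and BXA. In the classical strains it was 0.53 without I/LnJ and SWR/J (adjusted permutation p = 0.012). In BXH it was 0.70 without BXH8/TyJ and BXH19/TyJ (adjusted permutation p = 0.072). The H2-K1 and H2-D1 probe sets used, 1427746_x_at and 1451784_x_at, may each also read RNA of the other gene. The annotation gives 5 further probe sets to both genes together. The part of such shared reading in this r was not tested. Psmb8 with the leukocyte list gave r of 0.34 in BXD (adjusted permutation p = 0.11), 0.45 in AXB and BXA (0.039), 0.12 in BXH (0.76) and 0.61 in the classical strains (0.0043). The rho was 0.44 (adjusted permutation p = 0.031), 0.56 (0.0073), -0.06 (0.87) and 0.70 (0.00045) in that order of groups. H2-K1 with the leukocyte list gave rho of 0.35 in BXD (adjusted permutation p = 0.089), 0.78 in AXB and BXA (0.00014), 0.15 in BXH (0.73) and 0.47 in the classical strains (0.021), with r of 0.19, 0.49, 0.22 and 0.50. For Psmb8 in AXB and BXA, r was 0.40 without the AXB19 family and BXA12/PgnJ (adjusted permutation p = 0.094). H2-T23 with H2-T10 gave r of 0.75 in BXD (rho 0.68) and 0.77 in BXH (rho 0.73, and 0.61 without BXH8/TyJ and BXH19/TyJ), and no r was given where strains split.

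**Figure D4:**
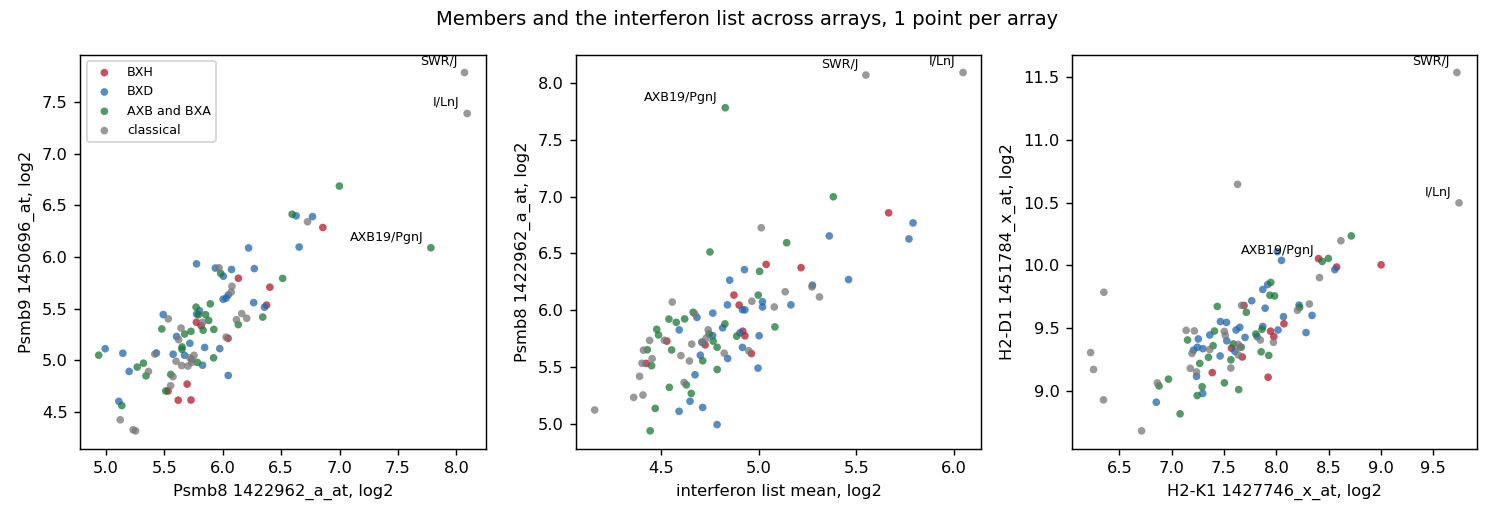
Psmb9 against Psmb8, Psmb8 against the interferon list mean, and H2-D1 1451784_x_at against H2-K1, in log2 units, 1 point per array coloured by group. SWR/J and I/LnJ lie at the upper end, Psmb8 8.07 and 8.09, and AXB19/PgnJ, Psmb8 7.78, lies above the other arrays at its interferon list mean of 4.83.

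Over 94 families, after group means were subtracted, Psmb8 and Psmb9 had a Pearson r of 0.90 with each other. Outside the 6 members, the genes most like Psmb8 were Igtp, Irgm2 and Ifi47, interferon-inducible GTPases (Pearson r 0.86, 0.84 and 0.82, over 7508 genes). For Psmb9 they were Ifi47, Igtp and Phf20l1 (0.84, 0.82 and 0.80). Outside the members, Phf20l1 was also first for H2-K1 (0.81) and H2-D1 (0.77), each followed by Irgm2 (0.74 and 0.71). Among the members, H2-K1 had an r of 0.78 with Psmb8 and 0.77 with H2-D1, and H2-D1 had 0.77 with Psmb9. Whether the H2-K1 and H2-D1 probe sets also read each other's RNA was not tested. None is given for H2-T23 and H2-T10, which split in the AXB, BXA and classical strains. These r are descriptions across arrays that share processing.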

How the data were processed

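The deposited table holds log2 values of 22416 probe sets on 99 arrays, made by the authors, and GCOS and RMA are named per the submitters' processing notes, without versions. No scanner files were used here, so signal over background is not known, and the number of arrays limits the precision. Gene names of probe sets came from GEO's annotation of the platform. Probe sets with a mean above the 40th percentile (3.59 log2 units) were tested with limma 3.58.1 in R 4.3.3, without covariates, with Benjamini-Hochberg adjustment over all 13398. Near-isogenic families were averaged. On simulated data with 100 probe sets shifted by 0.5 log2 units, limma recovered 96% for BXD against AXB and BXA and 87% for BXH against AXB and BXA. The shifted probe sets were drawn at random from all 13398, so these shares do not give the recovery for the members. The age label, 16 to 113 weeks, goes against the 16 weeks of the protocol and was not used.

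Families were counted around the parental midpoint where parents differed by at least 1 log2 unit. Correlations used 100000 permutations (Python 3.11.15, numpy 2.4.6, scipy 1.17.1). No r was to be given where strains fall into separate clusters, but how to recognise clusters was settled only after values were seen, and 3 rules were tried in turn: an interval of 0.75 log2 units with at least 4 strains on each side, which left 1 relation without an r; an interval of 0.4, which left 7; and the rule used, 0.75 or panel parents that differ by at least 1 on both measures, which left 2. Relations with B2m, Tap1 and Tap2 could not be computed, and others were added after the data were seen.

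The members and lists were chosen with earlier results of these data known. Named genes were all probe sets of the members, called pathway genes, and the 3 most similar genes of each member, members left out of that ranking. For H2-T23 and H2-T10, which split, these are not given. Alternatives were the dim filter, the brightest probe set, centring, trend and robust moderation, a Gapdh covariate, lower and upper title numbers, unaveraged families and arrays left out.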

Additional observations from a re-analysis of the deposited data

How the results depend on the processing

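Of 828 alternative values, 787 kept their side of the threshold or stayed within 1.5 times, and none reversed a call. Among these 787, 48 panel differences that were not called changed sign. Sign changes of correlations that did not pass were not counted. With title numbers up to the median, 0 of 16 probe sets were called between BXD and the AXB and BXA panels. With the brightest probe set per gene, 1 of 6 was called between BXH and AXB and BXA, and 0 of 6 between BXH and BXD, since the splitting H2-D1 probe sets are not the brightest. Without arrays with markers of another organ, 0 of 16 were called in either of these, with 3 BXH arrays left. With the Gapdh control as a covariate, 3 were called between BXH and BXD, without 1450170_x_at and 1426324_at. H2-T23 between BXH and AXB and BXA had a limma adjusted p of 0.058 when near-isogenic strains were not averaged. Over all probe sets, 1916 calls between BXD and the AXB and BXA panels became 681 with the Gapdh covariate, 880 without arrays with markers of another organ, and 783 and 284 with title numbers up to and above the median. Without the same arrays, 751 calls between BXH and AXB and BXA became 36, and 1327 between BXH and BXD became 116, or 791 with the Gapdh covariate. The causes were not tested.

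Of 70 relations, 46 had an adjusted permutation p under 0.05, against 42 by Spearman's rho and 33 without the 2 strains farthest from the median. These counts include the relations added after the data were seen. Under the first rule for clusters that was tried, an interval of 0.75 alone, the count was 47 of 71. Under the second, an interval of 0.4, it was 42 of 65, and 5 BXH relations of Psmb9 that are computed here had no r. No paired analysis was possible because the labels give no replicate numbers and each strain has 1 array.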

Other observations

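Psmb8 stood at 7.78 on the AXB19/PgnJ array, against 5.48 on the lowest of the 3 arrays of its near-isogenic family, a range of 2.30 log2 units. The same array had the highest leukocyte list mean of all, 6.92, and its H2-T23 value, 9.71, was also the highest of the family, with a range of 1.07. The BXD24 pair differed by 0.98 for Psmb8 and by 0.00 for Psmb9 1450696_at.

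The Psmb9 probe set 1416016_at was at 5.002 in C57BL/6J, against 4.22 in DBA/2J, 4.23 in A/J and 4.19 in C3H/HeJ, whereas 1450696_at was at 5.22 in C57BL/6J and higher in those 3 strains, at 5.39, 5.90 and 5.41. RIIIS/J and SWR/J had the highest values of the shared probe set 1451683_x_at, 6.44 and 6.50, against a classical median of 3.76.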
